A study of Mus musculus with 13 samples.

Results

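Differentiating female mouse embryonic stem cells (mESCs) were compared 1 day apart, on day 5 against day 4, in each of 3 hairpin groups. The comparison used 6 of the 13 RNA-seq libraries of the series, chosen by their labels: 3 from day 4 and 3 from day 5. The mESC line was a hybrid of the FVB/NJ and CAST/EiJ strains, with an X chromosome inherited from either strain. The labels do not give the share of XO cells, which have lost an X chromosome. The paper describes such cells as quick to take over female mESC cultures. Cells were expanded in 2i, moved to the serum-containing medium DME HiHi, transduced with a retroviral hairpin on day 2 and selected with puromycin from day 3. All 6 cultures therefore carried a hairpin and the resistance gene. Nons was the nonsilencing control, and Smarcc1.6 and Smarcc1.7 were 2 hairpins against Smarcc1, which encodes a core subunit of the BAF chromatin remodelling complex. Each group had 1 library on each day, each library was a whole culture, and the labels do not say whether the 6 cultures came from separate differentiations or from more than 1 line. Hence the 3 groups served as the 3 pairs, and no p-value measures the spread between replicate cultures of a group. The limma p-values rest on the spread between these pairs and also borrow spread from all tested genes.

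Cells that leave the naive state switch off a group of transcription factors that hold self-renewal in 2i, pass through a formative state in which de novo DNA methyltransferases and Fgf5 are high, and only then take on lineage genes. In female cells the long noncoding RNA Xist is switched on in the same window. It coats the X chromosome from which it is made, and genes on that chromosome are then silenced, a process called X chromosome inactivation (XCI). Days 4 and 5 lie in this window.

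The sequences below define the groups. Each is the 22-base guide strand cut from the designed hairpin, written 5′ to 3′ with its seed, bases 2 to 8, in capitals.
Nons: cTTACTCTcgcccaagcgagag
Smarcc1.6: tGTAACTGcttcttcatcctgc
Smarcc1.7: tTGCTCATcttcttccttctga
The complement of the Nons guide was found in 0 genes of the GENCODE M21 transcripts. Those of Smarcc1.6 and Smarcc1.7 were each found in full in 1 gene, Smarcc1. Their sites lay in coding sequence on the plus strand of chromosome 9 in mm10, that of Smarcc1.7 in exon 11 of 29 (110173911 to 110173932) and that of Smarcc1.6 in exon 13 (110177472 to 110177493). The hairpins have different seeds, so the pair shares a target gene and not a seed.

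Smarcc1 itself checked the labels. Its log2 CPM, the log2 of mapped reads scaled to library size, was 9.10 in Nons, 7.42 with Smarcc1.6 and 7.96 with Smarcc1.7 on day 4. On day 5 it was 8.87, 7.40 and 7.78. Both hairpin cultures lay below both Nons libraries on both days. From day 4 to day 5 the level changed by -0.14 ± 0.06 (SE, n = 3 pairs; limma adjusted p = 0.0992), which did not pass the threshold. Pou5f1, the defining pluripotency factor of mESCs, stood between 9.94 and 10.27, and the cultures were still rich in it on day 5.

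The 6 libraries were alike in how reads were assigned, with 91.6% to 92.0% of mapped reads in genes. The shallowest library, Smarcc1.7 on day 5, had 13993440 mapped reads and the deepest, Smarcc1.6 on day 4, had 63548079, and all 3 day 5 libraries were shallower than their day 4 partners. At these depths a gene with 3 reads lay at a log2 CPM between -4.40 and -2.22, and such floors cover counting error only. Ribosomal protein genes took 4.68% to 4.82% of gene reads on day 4 and 5.49% to 5.75% on day 5, and mitochondrial genes 1.52% to 1.63% and then 1.19% to 1.20%. These shares moved with the day in every group, and their part in the results below was not tested. The libraries are bulk samples, in which fewer cells of a type and less RNA per cell cannot be told apart.

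To ask which genes moved over the day, the step was defined as the log2 CPM on day 5 minus that on day 4 within a group. It was fitted with limma to the 13353 genes (of 25965 in the table) whose mean log2 CPM over the 6 libraries was at least 0. With a Benjamini-Hochberg adjusted p under 0.05 as the call, 2695 genes rose (20.2% of those tested) and 2169 fell (16.2%). Counts of calls in the gene lists below are to be read beside these shares. All 4864 called genes moved in the same direction in all 3 pairs. The median step of all tested genes was 0.05. By size alone, with no model, 387 genes rose at least 2-fold in every pair (2.90%) and 336 fell at least 2-fold in every pair (2.52%). The count of calls depended heavily on which pair was left out. Without Smarcc1.7, the shallowest, 1025 genes were called, without Smarcc1.6 2926 and without Nons 6556. All 4864 genes kept their direction in each of these fits, and without the pairing 3073 genes were called. Of 149 genes chosen for a closer check of their step, 57 lost the call without Smarcc1.7, 17 without Smarcc1.6 and 1 without Nons, and no called step turned sign.

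**Figure D1:**
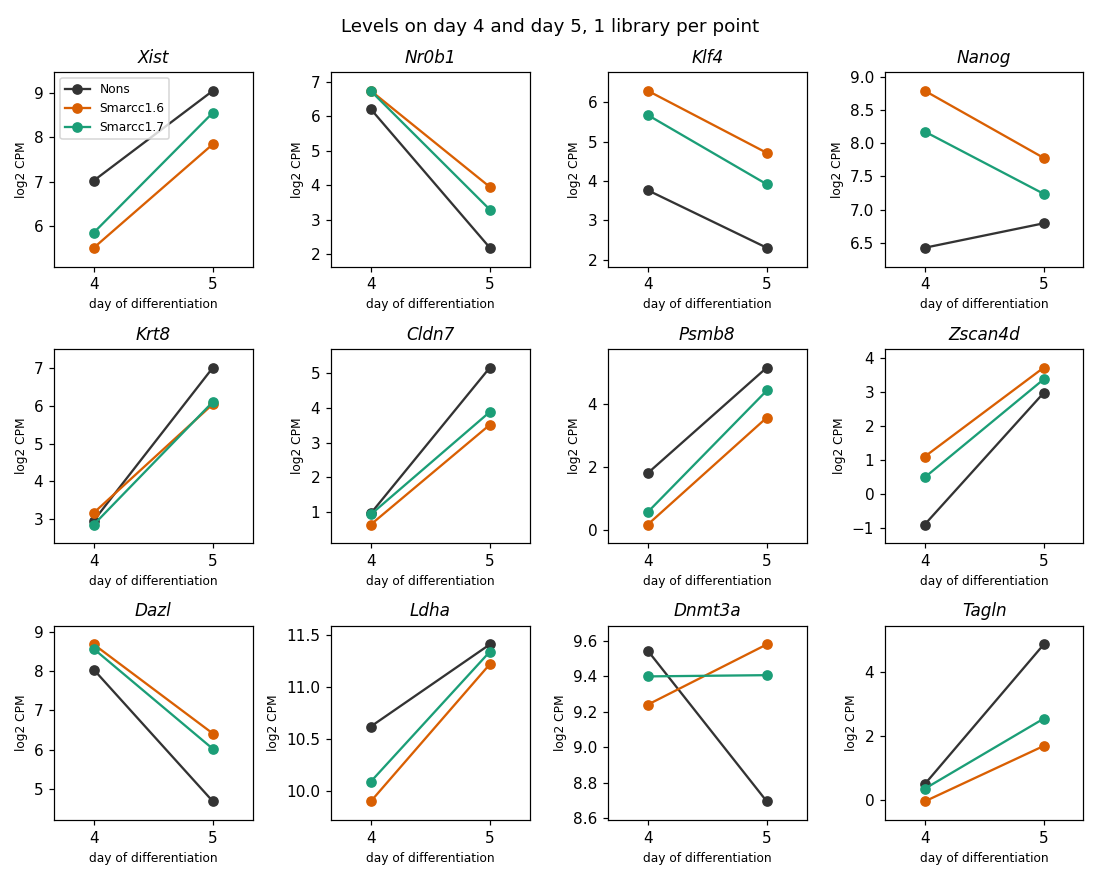
Levels of 12 genes on day 4 and day 5. The horizontal axis is the day, the vertical axis the log2 CPM (a separate scale in each panel), each point is 1 library, and lines join the libraries of 1 group. Xist, Krt8, Cldn7, Psmb8, Zscan4d, Ldha and Tagln were higher on day 5 in all 3 groups, Nr0b1, Klf4 and Dazl were lower in all 3, and Nanog and Dnmt3a moved one way in Nons and the other way with Smarcc1.6.

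The naive pluripotency genes fell together. Of the 14 genes on this list, 12 fell, 1 rose and 1 did not pass, with a median step of -1.25 beside 0.05 for all genes. Nr0b1, an X-linked nuclear receptor of naive cells, had a log2 CPM of 6.21 in Nons, 6.74 with Smarcc1.6 and 6.74 with Smarcc1.7 on day 4. On day 5 it had 2.18, 3.95 and 3.29. All day 5 values lay below all day 4 values, and the mean step was -3.42 ± 0.22 (SE; adjusted p = 0.000761). Klf4, a reprogramming factor, began far apart in the groups, at 3.76 in Nons and at 6.29 and 5.67 with the hairpins, and ended at 2.30, 4.71 and 3.91. Its step was nonetheless alike in the 3 pairs (-1.46, -1.58 and -1.76), and both hairpin cultures ended day 5 above the level at which Nons had begun. Tbx3 fell by 2.06, and Tet2, the naive-state 5-methylcytosine oxidase, fell by 1.67.

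Esrrb, Zfp42, Tfcp2l1 and Tcl1 fell by 1.36, 1.39, 1.40 and 1.51. The 1 riser was Dppa3, a maternal factor that guards methylation in the zygote. It went from 3.12, 4.07 and 3.86 to 5.05, 5.61 and 5.38, with a step of 1.66 ± 0.11 (SE; adjusted p = 0.000809), and its groups did not overlap between the days. Nanog did not pass, because its steps went in opposite directions, as described below.

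The broader pluripotency genes moved far less. Of 12, 10 fell and 2 rose, with a median step of -0.33. Sox2 fell by 0.59 and Dppa5a by 0.67, whereas Lin28a, an RNA-binding repressor of let-7, rose by 0.55. Pou5f1 rose by 0.14, from 9.94, 10.16 and 10.02 to 10.12, 10.27 and 10.15 (adjusted p = 0.0431). It rose within each pair while the days overlapped across groups, and with each library centred on its median autosomal gene the step was 0.10 and no longer passed.

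The formative and primed genes split. Of 15, 6 rose, 6 fell and 3 did not pass. Fgf5, the standard marker of this state, rose from 5.42, 4.49 and 4.91 to 6.48, 5.74 and 6.10, a step of 1.17 ± 0.07 (SE; adjusted p = 0.000734). Nons was the highest on both days. Sall2 rose by 1.49 and Pou3f1, a neural and primed-state POU factor, by 0.82. Gbx2 fell by 1.84 and Tcf15, a factor that primes cells for exit, fell by 1.09.

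Among called genes with at least 20 reads in 3 libraries, 5 of the 10 largest rises were epithelial genes, namely Ap1m2, Galnt3, Crb3, Krt8 and Cldn7. The other 5 were Gm4781, Psmb8, BC080695, Gm20496 and Gm13078, with steps of 3.56, 3.55, 3.51, 3.42 and 3.39. Ap1m2 encodes the epithelial subunit of the AP-1 clathrin adaptor that sorts proteins to the basolateral membrane. It had a log2 CPM of 0.35 in Nons, -0.35 with Smarcc1.6 and 0.28 with Smarcc1.7 on day 4, and 4.85, 3.83 and 4.22 on day 5. The days were far apart in every group, and the rise was 18.4-fold (step 4.20 ± 0.18, SE; adjusted p = 0.00054). Krt8, a keratin of simple epithelia, went from 2.96, 3.17 and 2.85 to 7.02, 6.05 and 6.11, a rise of 3.40 ± 0.22 (SE; adjusted p = 0.000761). Its partner keratin Krt18 rose by 2.09, and the keratin Krt7 by 2.77. Cldn7, a tight junction claudin, rose 10.2-fold and Crb3, which sets apical polarity, 10.7-fold. Galnt3, a mucin-type glycosyltransferase, rose 13.6-fold from only 13 to 55 reads per library on day 4.

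A wider list of 26 epithelial junction and polarity genes was drawn up after these values were seen, and so describes the pattern without testing it. All 26 were tested, of which 15 rose, 3 fell and 8 did not pass, with a median step of 1.12. Cldn6, the claudin of early epithelia, had the surest rise, from 4.08, 2.53 and 3.0 to 7.07, 5.55 and 6.08 (step 3.03, adjusted p = 0.000353). Esrp2, a splicing regulator of epithelial isoforms, rose by 1.82, Rab25 by 1.73 and the membrane proteases Prss8 and St14 by 1.45 and 1.35. The adhesion molecules that mESCs already make in bulk did not pass: Cdh1 changed by 0.09 and Epcam by 0.17. Jup and Grhl2 were among those that fell, by 0.64 and 0.41.

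Genes of the 2-cell stage also rose. A small share of mESCs passes through a state in which the Zscan4 cluster and the Pramel-like genes of chromosome 4 are transcribed, as in the embryo at genome activation. BC080695 and Gm13078, both Pramel-like, were among the 10 largest rises, as was the pseudogene Gm4781, which is on none of the lists. Zscan4d, which acts in telomere maintenance, had a log2 CPM of -0.90, 1.10 and 0.49 on day 4 and 2.98, 3.71 and 3.37 on day 5. The rise was 8.73-fold (adjusted p = 0.00145), with no overlap between days. Zscan4c rose 6.89-fold, from 47 to 107 reads per library on day 4. In a list of 23 such genes put together after the values were seen, 18 were in the table and 13 were tested, and all 13 rose, with a median step of 2.90. The other 5 had too few reads. Members of these families are near-identical copies, so reads may be split or shared among them, and their individual values are uncertain. One relative that is not on that list went the other way, so the 13 rises leave it out. Gm13128, also Pramel-like, fell from 1.36, 3.52 and 2.68 to -4.54, 1.12 and -0.48. In Nons it went from 153 reads to 2, a 59.6-fold lower level (95% counting interval 16.2 to 496).

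More genes fell than rose on the germline and 2-cell list. Of its 16 genes 9 fell, 3 rose and 4 did not pass (median step -0.63), and 2 of the 3 that rose were Zscan4c and Zscan4d. Dazl, an RNA-binding protein of germ cells, fell from 8.03, 8.67 and 8.56 to 4.68, 6.41 and 6.02, a step of -2.72 ± 0.20 (SE; adjusted p = 0.000872). Hormad1 of the meiotic chromosome axis fell by 1.33, Asz1 by 1.32 and Mov10l1, which acts in the piRNA pathway, by 1.04.

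Genes that load peptides on MHC class I rose as well. Psmb8, a catalytic subunit of the immunoproteasome, rose 11.7-fold, from 1.80, 0.16 and 0.56 to 5.16, 3.57 and 4.43 (adjusted p = 0.00054). Of 13 antigen processing genes listed after the values were seen, 12 were tested and 11 rose, with a median step of 1.45, and H2-D1 did not pass (0.59). The proteasome activators Psme1 and Psme2 rose by 1.65 and 1.68, the peptide transporter genes Tap1 and Tap2 by 1.25 and 1.91, B2m by 1.35 and H2-K1 by 1.53. No tested member had a called difference in step between Nons and the hairpins. Psmb8, Psmb9, Tap1 and Tap2 sit side by side on chromosome 17. The antisense transcript Gm20496, also among the 10 largest rises, overlaps Psmb8 and Tap2, and since no strand setting is given in the sources used here, its reads cannot be told apart from theirs.

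The wider interferon response was mixed, beside 20.2% of all tested genes that rose and 16.2% that fell. Of 14 interferon genes 8 were tested, of which 3 rose, 1 fell and 4 did not pass, with a median step of -0.11. Oasl2 rose by 2.07, Isg15 by 1.11 and Bst2 by 0.55, whereas Oas1a fell by 0.93. Ifit1, Ifit3, Irf7, Usp18, Ifih1 and Mx1 had too few reads to be tested.

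The deepest falls, besides Nr0b1 and Gm13128, included Notum, a secreted enzyme that inactivates WNT ligands, which fell from 3.04, 3.86 and 3.70 to -0.63, 0.57 and 0.28, a step of -3.46 ± 0.18 (SE; adjusted p = 0.000582). All its day 5 values lay far below its day 4 values. 4732444A12Rik, with a step of -3.64, overlaps Notum on the opposite strand and so cannot be told apart from it. Edn2, an endothelin, and Serpinb6c fell by 3.75 and 3.37. A930013B10Rik had the deepest mean fall, -4.45, and in Nons it went from 217 reads to 1, a 169-fold lower level (95% counting interval 30.0 to 6704).

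Most glycolytic genes rose. Of 16 12 rose, 1 fell and 3 did not pass, with a median step of 0.50. Tpi1, triose phosphate isomerase, went from 7.94, 7.37 and 7.47 to 9.40, 9.09 and 9.24 (step 1.65 ± 0.07, SE; adjusted p = 0.00054), so that the days did not overlap. Ldha, which turns pyruvate into lactate, rose by 1.12 and Pfkl, the liver form of phosphofructokinase, by 1.05. The platelet form Pfkp was the exception and fell by 1.87, from 8.89, 9.43 and 9.30 to 6.42, 7.98 and 7.60.

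Stress and cell cycle genes moved modestly. Of 14 p53 target and growth arrest genes 13 were tested, 8 rose and 2 fell (median step 0.29). Phlda3, Btg2 and Cdkn1a, the p21 inhibitor of cyclin-dependent kinases, rose by 0.92, 0.80 and 0.40, while Sesn1 and Gadd45a fell by 0.99 and 0.73. Of 13 genes of the integrated stress response 5 rose and 1 fell (median 0.17), led by Ddit4, an inhibitor of mTORC1, which went from 6.75, 7.18 and 7.03 to 8.12, 8.45 and 8.47. Of 16 cell cycle genes 4 fell and 1 rose, and the 3 D-type cyclins Ccnd3, Ccnd2 and Ccnd1 were among those that fell, by 1.12, 0.75 and 0.72. Counts in these small lists stand beside 20.2% of all tested genes that rose and 16.2% that fell.

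Lineage genes were mixed in direction. For the primitive streak and early mesoderm 10 of 18 genes were tested, of which 4 rose and 3 fell: Cdx2, Wnt3, Lefty1 and Fgf8 rose by 1.56, 1.38, 1.07 and 1.00, and Mesp2, Eomes and Evx1 fell by 1.54, 1.07 and 0.82. For lateral and cardiac mesoderm 9 of 16 were tested, 2 fell (Kdr and Bmp4) and 0 rose. For neuroectoderm 5 of 14 were tested, Sox1 and Nes rose by 1.25 and 0.59 and Ncam1 fell by 1.18. For the trophoblast and simple epithelium list 10 of 12 were tested and 5 rose, the keratins named above with Ascl2 (1.24) and Gata2 (1.01), while Tfap2a fell by 0.75 and Elf5, a defining trophoblast factor, was at 3 to 116 reads and untested. These counts cover only the members that passed the filter on mean level. Among all tested genes 20.2% rose and 16.2% fell.

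Markers of other cell types were checked as whole lists, beside 20.2% of all tested genes that rose and 16.2% that fell. The fibroblast list summed to 37.1 to 51.6 CPM on day 4 and 14.7 to 42.0 CPM on day 5, with 3 of 7 tested members falling and Postn and Mgp at 0 reads in all 6 libraries. The endoderm list summed to 15.2 to 19.4 CPM and then 7.58 to 12.5 CPM, with 1 of 5 tested members (Sox7) falling by 3.19. The haematopoietic and endothelial list summed to 53.7 to 83.5 CPM and 51.2 to 77.5 CPM, with Emcn at 0 reads and Ptprc at 0 or 1 read. In that list Lmo2 rose by 1.80, and Gata1 and Pecam1 fell by 1.85 and 0.22.

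Calls in the signalling and matrix lists are to be read against the 20.2% that rose and 16.2% that fell among all tested genes, and the list sizes are small. Of 12 FGF and ERK feedback genes 4 rose and 1 fell: Ier3, Dusp6 and Spred1 rose by 1.08, 0.65 and 0.57 and Spry4 fell by 0.65. Of 13 WNT targets and antagonists 8 were tested, 3 fell (Notum, Wnt5a and Axin2) and 0 rose. Of 13 BMP and TGF-beta targets 1 rose, the activin antagonist Fst (1.62), and 3 fell, among them Smad6 and Id1, by 1.15 and 0.82. Of 19 collagen and matrix genes 15 were tested, 6 fell and 1 rose. Ctgf, a matricellular target of YAP, fell from 6.94, 6.73 and 6.93 to 5.42, 5.03 and 5.13, and Fn1, fibronectin, fell by 1.40.

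**Figure D2:**
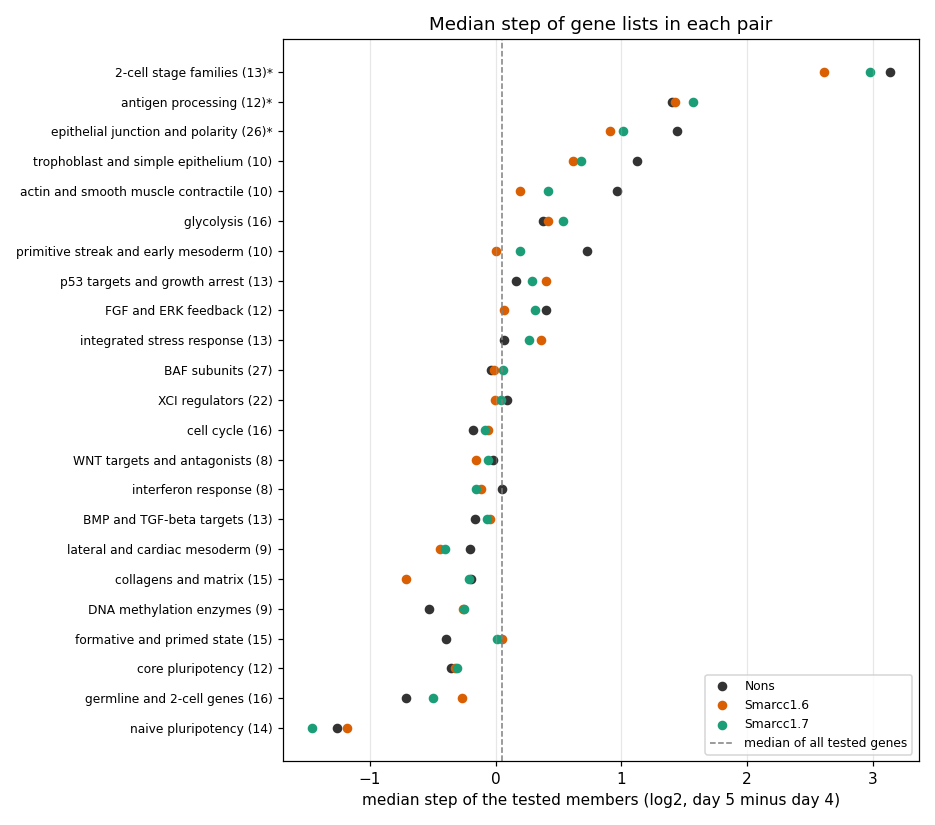
Median step of each gene list with at least 8 tested members, by pair. The horizontal axis is the median log2 step, points are the 3 pairs, the number of tested members is in brackets, an asterisk marks a list drawn up after the values were seen, and the dashed line is the median of all tested genes. Naive pluripotency lies lowest, with medians of -1.27 in Nons, -1.18 with Smarcc1.6 and -1.46 with Smarcc1.7, and for the contractile list Nons lies at 0.97 against 0.20 and 0.42.

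To ask whether the X chromosome moved as a whole, X-linked genes were compared with autosomal genes. Xist (minus strand of chromosome X, 103460375 to 103483217 in mm10) had a log2 CPM of 7.02 in Nons, 5.51 with Smarcc1.6 and 5.85 with Smarcc1.7 on day 4, and 9.05, 7.85 and 8.56 on day 5. All 3 cultures were higher on day 5 than any was on day 4, and the rise was 5.13-fold (step 2.36 ± 0.12, SE; adjusted p = 0.000589). Tsix, its antisense repressor, rose by 1.21 on the log2 scale in the same table, but it overlaps Xist and the strand setting is not given, so its reads cannot be told apart from those of Xist. The median step of X-linked genes was -0.18 in Nons, -0.08 with Smarcc1.6 and -0.08 with Smarcc1.7, against 0.07, 0.03 and 0.04 for autosomal genes. In each pair the X-linked median was below that of all 19 autosomes, whose medians ran from 0.03 to 0.13 in Nons, from -0.00 to 0.07 with Smarcc1.6 and from -0.03 to 0.06 with Smarcc1.7. The X-linked minus autosomal median step was -0.16 ± 0.08 (SD, n = 3 pairs; exact permutation p = 0.25, two-sided, the smallest that 3 pairs allow).

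**Figure D3:**
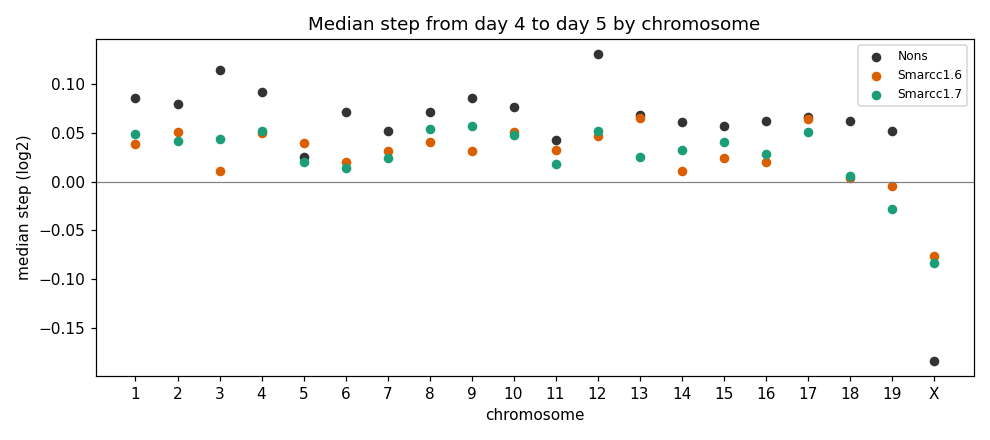
Median step by chromosome and pair. The horizontal axis is the chromosome, the vertical axis the median log2 step of its tested genes, and points are the 3 pairs. The X chromosome is the lowest in every pair, at -0.18, -0.08 and -0.08.

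Gene by gene, 161 of 526 X-linked genes fell (30.6%, against 16.2% of all tested genes) and 83 rose (15.8%, against 20.2%). Of 12814 autosomal genes 1999 fell (15.6%) and 2612 rose (20.4%). The difference in medians was seen at low and high expression: in the third of genes with the highest mean level it was -0.16, -0.08 and -0.07 in the 3 pairs. Without any filter on low values the mean difference was -0.01. The largest X-linked falls were in 4930550L24Rik, Pet2 and Nr0b1, by 4.01, 3.76 and 3.42. Besides Xist, the largest X-linked rises were Plac1, a placental gene, and Itm2a, which rose 5.20-fold and 4.73-fold. Itm2a went from 3.78, 2.57 and 3.25 to 5.90, 4.91 and 5.51, with steps of 2.12, 2.34 and 2.27.

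Genes that commonly escape XCI were looked at after the values were seen. Of 4 tested, Kdm5c and Ddx3x fell by 0.30 and 0.24, and Kdm6a and Eif2s3x did not pass (-0.06 and 0.01, the latter with its sign turned under other scalings). By distance from Xist, 35.9% of the 103 genes within 20 Mb fell, 34.8% of the 155 genes at 20 to 40 Mb, 28.2% of the 124 at 40 to 60 Mb and 24.5% of the 143 farther away. The median step in these bins was -0.21, -0.25, -0.11 and -0.12 in Nons. The 4 bins had medians of -0.13, -0.16, -0.05 and 0.06 in the Smarcc1.6 pair and of -0.08, -0.20, -0.08 and -0.00 in the Smarcc1.7 pair. The values are a description, with no test, since neighbouring genes share their chromosome and libraries.

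**Figure D4:**
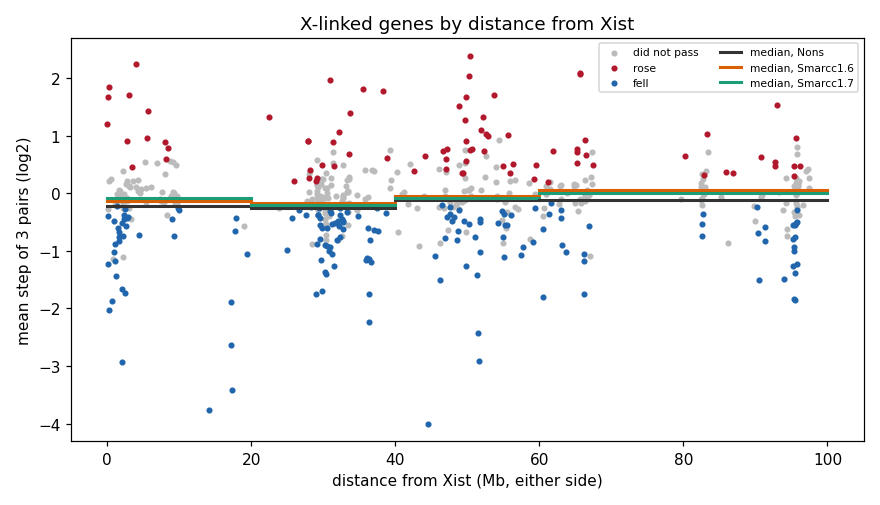
Mean step of X-linked genes by distance from Xist. The horizontal axis is the distance in Mb on either side, the vertical axis the mean log2 step of the 3 pairs, points are genes coloured by their call, and horizontal lines are the medians of each pair in 4 bins. In the bin beyond 60 Mb the Nons median is -0.12 and the hairpin medians are 0.06 and -0.00.

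Genes that act in XCI, in chromatin and in DNA methylation included both rises and falls, at shares to be read against the 20.2% that rose and 16.2% that fell among all tested genes. Of 22 XCI regulators tested, 6 rose, 7 fell and 9 did not pass. The 6 include Xist itself and Tsix, whose reads cannot be told apart from those of Xist. Ciz1, which anchors Xist in the nucleus, and Pcgf5, a subunit of the Polycomb complex that Xist recruits, rose by 1.20 and 1.12. Smchd1, which maintains silencing on the inactive X, rose from 6.52, 6.49 and 6.48 to 7.36, 7.01 and 7.21 (step 0.70). Spen, the silencing factor that binds Xist, fell by 0.26 and Jarid2 by 0.77. Of 27 BAF subunits tested, 5 rose, 5 fell and 17 did not pass, which is near those shares, and none moved by 2-fold in mean: Dpf1 fell by 0.96 and Bcl7c rose by 0.80. Of 9 DNA methylation enzymes 2 rose and 5 fell, with Uhrf1, which brings Dnmt1 to replicating DNA, falling by 0.74 and Tet1 falling by 0.60.

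The other question was where the control step was larger or smaller than the hairpin steps. Over all tested genes the steps were correlated across genes (r = 0.69 between Nons and Smarcc1.6, 0.78 between Nons and Smarcc1.7 and 0.87 between the hairpins), a description in which genes are not independent replicates. Steps in Nons were the most spread out, with an SD across genes of 0.78 against 0.60 and 0.68. Among the 7624 genes whose mean log2 CPM reached 4, the SD was 0.50 in Nons and 0.41 and 0.45 with the hairpins. In the same genes the difference between steps had an SD of 0.36 between Nons and Smarcc1.6 and 0.30 between Nons and Smarcc1.7, against 0.17 between the hairpins. Of the 4864 called genes, the step was largest in Nons for 2124 (43.7%), with Smarcc1.6 for 1099 (22.6%) and with Smarcc1.7 for 1641 (33.7%). It was smallest in Nons for 1752 (36.0%), with Smarcc1.6 for 2189 (45.0%) and with Smarcc1.7 for 923.

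The difference itself, the Nons step minus the mean of both hairpin steps, was fitted with limma to all tested genes. At an adjusted p under 0.05 it was positive for 667 genes (5.00%) and negative for 913 (6.84%). This fit has 1 residual degree of freedom, the spread between Smarcc1.6 and Smarcc1.7, and 1 Nons pair, and it draws the rest of its spread from all genes. The calls depended on that: without a trend of the variance on mean level 0 genes were called (2386 at an unadjusted p under 0.05), with 9 libraries of days 4, 5 and 7 also 0 (1488 unadjusted), and with 12 libraries of days 4 to 7 there were 51. A called difference below says only that the single Nons pair stood apart from the hairpin pairs. Of the 1580 genes, 568 moved the same way in all 3 pairs and further in Nons, 264 moved the same way and less far in Nons, 557 moved one way in Nons and the other way with both hairpins, and in 191 the hairpins themselves had opposite signs.

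**Figure D5:**
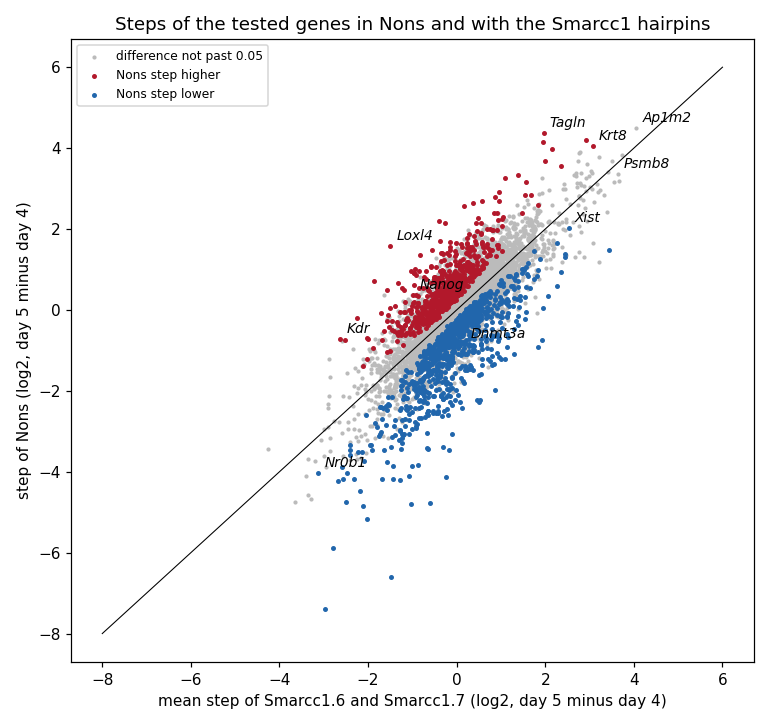
Step in Nons against the mean step of the hairpins for all 13353 tested genes. Both axes are log2 values of day 5 minus day 4, the line marks equality, and colours mark the 667 genes with a higher and the 913 with a lower step in Nons at an adjusted p under 0.05. Nanog and Loxl4 lie above 0 on the Nons axis and below 0 on the hairpin axis, and Ap1m2 and Psmb8 lie near the line.

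Nanog was the clearest of the opposed genes among pluripotency factors. It was 6.43 in Nons on day 4 and 6.79 on day 5, 8.79 and then 7.78 with Smarcc1.6, and 8.18 and then 7.24 with Smarcc1.7. Nons rose while both hairpin cultures fell, yet Nons stayed the lowest on both days. The Nons step was higher by 1.34 ± 0.08 (SE; adjusted p = 6.33e-07). Among the other naive genes the step of Tfcp2l1 was also higher in Nons, by 0.53, whereas those of Nr0b1, Klf2 and Fbxo15 were lower, with differences of -0.91, -0.69 and -0.66. Klf4, Zfp42 and Esrrb had differences of 0.21, 0.05 and 0.22 that did not pass.

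Formative genes mostly had a lower step in Nons. Over the 15 tested the median difference was -0.63, while Etv4 had a higher step in Nons, by 1.04. Dnmt3a, a de novo DNA methyltransferase, went from 9.55 to 8.69 in Nons, from 9.24 to 9.58 with Smarcc1.6 and from 9.40 to 9.41 with Smarcc1.7. It was highest in Nons on day 4 and lowest in Nons on day 5, a difference in step of -1.03 ± 0.10 (SE; adjusted p = 1.3e-05). Dnmt3b was 10.09 and 10.14 in Nons but rose by 0.65 and 0.70 with the hairpins. Lef1, a WNT effector, fell by 0.93 in Nons and changed by 0.05 and 0.01 with the hairpins. Otx2 fell by 0.83 in Nons and by 0.18 and 0.08 with the hairpins, and Pou3f1 rose by 0.22 in Nons and by 1.17 and 1.06 with the hairpins. For Pou3f1 the groups were far apart on day 4 (6.97, 5.82 and 6.28) and close on day 5 (7.19, 6.99 and 7.33).

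Glycolytic genes also had mostly a lower step in Nons. Over the 16 the median difference was -0.26. Ldha was 10.62 in Nons on day 4 against 9.90 and 10.09 with the hairpins, and 11.41 against 11.22 and 11.34 on day 5, a difference in step of -0.50 ± 0.06 (SE; adjusted p = 0.000104). Aldoa began at 10.36 against 9.74 and 9.87 and ended at 10.62 against 10.63 and 10.69. Its groups were apart on day 4 and close together on day 5. The glucose transporter gene Slc2a3 closed a gap from below, rising by 1.52 in Nons, from 7.51 to 9.03, and by 0.08 and 0.53 with the hairpins, which had begun at 8.86 and 8.43. Over all 1580 genes with a called difference, the gap between Nons and the mean of the hairpins was smaller on day 5 for 588 and larger for 992, with a median of 0.30 on day 4 and 0.45 on day 5.

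Contractile and cytoskeletal genes opened a gap. Of 18 genes 10 were tested, with a median difference in step of 0.65. Tagln, a calponin-like actin binder of smooth muscle, began at 0.48, -0.06 and 0.34 and ended at 4.85 in Nons against 1.68 and 2.53 with the hairpins. The groups were together on day 4, and on day 5 Nons stood apart, a difference in step of 2.41 ± 0.40 (SE; adjusted p = 0.00124). Tpm1, an abundant tropomyosin, went from 6.46 to 8.37 in Nons, from 6.65 to 7.02 with Smarcc1.6 and from 6.54 to 7.27 with Smarcc1.7 (difference 1.36, adjusted p = 8.37e-06). The 8 members below the filter were mixed in Nons. Their counts are raw reads, out of 59615972 mapped reads on day 4 and 46420579 on day 5. Acta1 went from 2 reads to 46 in Nons, Acta2 from 7 to 34 and Actc1 from 1 to 27. Mylk went from 64 to 20, Lmod1 from 45 to 23, Myocd from 34 to 18 and Actg2 from 1 to 0. Tgfb1i1 went from 80 to 64, nearly the same share of mapped reads at these depths. The difference in step from the hairpins was not fitted for these 8. Thbs1, a matricellular glycoprotein, instead crossed over. It was 3.92 in Nons against 5.28 and 4.64 with the hairpins on day 4, and 4.84 against 4.07 and 3.90 on day 5. It rose by 0.92 in Nons and fell by 1.21 and 0.74 with the hairpins, a difference of 1.89.

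The promoters of these genes were searched for the CArG box, the motif bound by SRF, in 250 bases before to 50 after each start site on both strands of RefSeq sequence (GRCm38.p6), the motif being its own complement. It was found for 4 of the 9 tested contractile genes with a promoter in the table (44.4%) and for 138 of 9239 tested genes (1.49%). The list holds classic SRF targets, so this share describes how it was chosen. The matches are shown with 10 bases on either side, the motif in capitals.
Cnn2 (chr10:79988534-79988563, plus strand): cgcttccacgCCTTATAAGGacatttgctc
Myl9 (chr2:156775293-156775322, plus strand): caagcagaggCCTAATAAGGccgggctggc
Srf, first (chr17:46556225-46556254, minus strand): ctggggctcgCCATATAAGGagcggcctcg
Srf, second (chr17:46556205-46556234, minus strand): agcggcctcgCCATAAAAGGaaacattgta
Vcl (chr14:20929161-20929190, plus strand): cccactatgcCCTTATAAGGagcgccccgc
The Nons step was higher by 0.92 for Cnn2, 1.56 for Myl9, 0.49 for Srf and 0.52 for Vcl. It was also higher for Tagln and Tpm1, by 2.41 and 1.36, and these genes are not among the matches. Only 9 of the 10 tested genes had a promoter to search, so absence from the matches need not mean a promoter without the motif. Whether the motif goes with the difference was not tested. A match is a description of the letters and not of binding.

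Other high-ranking differences fell in scattered genes. The 6 largest positive ones, Tagln included, were led by Loxl4 and also held Plekhm2, Mmp28, Htr1d and She, between 2.41 and 3.07. Loxl4, a lysyl oxidase-like enzyme, was -1.04 in Nons against 2.08 and 1.77 on day 4 and 0.53 against 0.66 and 0.19 on day 5. Its groups were apart on day 4 and together on day 5. The 6 most negative ones were in Muc20, A930013B10Rik, Ankrd55, Gpr132, Hnf4a and Plb1, between -5.11 and -3.29. All rested on few reads in Nons on day 5, from 1 to 10. Hnf4a, a nuclear receptor of endoderm and liver, had 107 reads and then 3 in Nons, a 27.8-fold lower level (95% counting interval 9.25 to 137), and went from 2.32 to 1.25 and from 1.71 to 0.72 with the hairpins.

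Among mesoderm genes, Kdr, the VEGF receptor of early mesoderm and endothelium, was 2.49 and then 1.77 in Nons, against 3.81 and 1.17 with Smarcc1.6 and 3.26 and 0.65 with Smarcc1.7. Nons was the lowest on day 4 and the highest on day 5, and its step was higher by 1.91 ± 0.33 (SE; adjusted p = 0.00168). Eomes fell by 0.55 in Nons and by 1.41 and 1.24 with the hairpins. Over the 9 lateral and cardiac mesoderm genes tested the median difference was 0.48, with Tbx20 at 1.62 and Tek at -1.01. For the 10 streak genes tested the median difference was 0.58.

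The epithelial rise differed in size for some genes. Over the 26 epithelial genes listed after the values were seen, the median difference was 0.17. Krt8 rose by 4.06 in Nons and by 2.88 and 3.26 with the hairpins, a difference of 0.99 ± 0.18 (SE; adjusted p = 0.00228). Cldn7 rose by 4.20 in Nons and by 2.88 and 2.96 with the hairpins, a difference of 1.29. Ap1m2 and Cldn6 had differences of 0.44 and -0.05 that did not pass. Zscan4c and Zscan4d had differences of 0.05 and 1.12 that did not pass.

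On the X chromosome, Xist rose less in Nons, where it had begun higher: by 2.03 against 2.34 and 2.71, a difference of -0.50 ± 0.12 (SE; adjusted p = 0.0139). Nons nevertheless held the most Xist on both days. Of 526 X-linked genes 82 had a lower step in Nons (15.6%, against 6.84% of all tested genes) and 24 a higher one (4.56%, against 5.00%). Of autosomal genes 829 had a lower step (6.47%) and 643 a higher one (5.02%). The X-linked minus autosomal median step was -0.25 in Nons, -0.11 with Smarcc1.6 and -0.12 with Smarcc1.7. The difference between the groups in these medians was not tested, and the share of XO cells in each library is not known.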

How the data were processed

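RNA-seq libraries (TruSeq, sequenced as paired ends on a NextSeq500) were mapped to mm10 with strain variants masked and quantified per gene in Seqmonk. The study names tophat or hisat2 without saying which was used for a library, and the submitters' processing notes name TopHat2 2.0.12 and bcl2fastq. The strand setting is not given in the sources used here. The authors deposited log2 values scaled by total mapped reads (log2 CPM) per gene. Low values fell on whole reads, and 0 reads was written as 0.9 reads. The table had 25965 entries, 124 of them sharing 58 symbols, of which 24587 matched GENCODE M21. Columns left unused numbered 0.

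The step was fitted with limma 3.58.1 in R 4.3.3 on the log2 values of the 6 libraries, which carry no count model. Its terms were hairpin group, as a block, and day, with eBayes with a trend and Benjamini-Hochberg adjustment. The fit of the step has 2 residual degrees of freedom and a prior of 3.85, and the fit of Nons against hairpins has 1 and a prior of 13.9. Pairing rests on the shared hairpin group: deviations from the day means correlated between days (r = 0.489, 0.494 and 0.158 for Nons, Smarcc1.6 and Smarcc1.7). Alternatives were other filters, scalings, pseudocounts, depths, variance models, sample sets, voom weights on recovered reads, no pairing and leaving out a pair.

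The members and lists were chosen with earlier results of these data known, and 4 of 28 lists were added after the values were seen. Genes were named by rule: Smarcc1, Xist and Tsix, the 10 largest called rises and falls and the 3 largest each way on the X chromosome with at least 20 reads in 3 libraries, the 4 largest called per list, and the 6 largest differences each way. A further 60 genes, some also under the rule, were named or had their difference reported after their values were seen. Where strand is unknown, genes overlapping another on the opposite strand are uncertain, among them Crb3, Notum, Ciz1, Gbx2, Ctgf, Fn1, Col4a1, Col4a2, Pfkp, Tpi1, Tagln and Muc20. Code was tested on simulated data. Some genes that the rule names are not reported here.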

Additional observations from a re-analysis of the deposited data

Results flagged for a closer look

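Each gene here was singled out because the step in Nons differed from the mean hairpin step at an adjusted p under 0.05 in the limma fit across all tested genes. The control had 1 pair, and 0 of these calls held without a trend of the variance on mean level or with 9 libraries of days 4, 5 and 7, so they rest on how the spread was estimated. Values are log2 differences, Nons minus hairpins.

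The step in Nons was higher by 3.07, 2.61, 2.59, 2.41 and 2.41 for Loxl4, Plekhm2, Mmp28, Htr1d and Tagln. It was higher by 2.41, 1.91, 1.89, 1.56 and 1.36 for She, Kdr, Thbs1, Myl9 and Tpm1. Higher steps in Nons were found for Nanog, Cldn7, Slc2a3, Etv4 and Krt8, by 1.34, 1.29, 1.22, 1.04 and 0.99. For Cnn2, Eomes, Tfcp2l1, Vcl and Srf it exceeded the hairpin steps by 0.92, 0.78, 0.53, 0.52 and 0.49, and for Tbx20 by 1.62.

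The step in Nons was lower for Muc20, A930013B10Rik, Ankrd55, Gpr132 and Hnf4a, with differences of -5.11, -4.43, -4.19, -3.90 and -3.77. For Plb1, Gm13128, Dnmt3a, Lef1 and Pou3f1 the differences were -3.29, -3.11, -1.03, -0.96 and -0.89. Lower steps were found for Otx2, Klf2, Fbxo15, Dnmt3b and Aldoa, at -0.70, -0.69, -0.66, -0.63 and -0.60. For Tek, Nr0b1, Ldha and Xist they were -1.01, -0.91, -0.50 and -0.50.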

How the results depend on the processing

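The fitted step made 4864 calls (2695 rises and 2169 falls). With no replicate block, that is without the pairing by group, it made 3073 (1792 and 1281). Leaving out 1 pair gave 1025 to 6556 calls, with 515 to 3532 rises and 510 to 3024 falls, the lowest without Smarcc1.7 and the highest without Nons. With 2 pairs the fit has fewer samples, and the cause of the gap between pairs was not tested. All other alternatives for this count stayed within 1.5 times.

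The difference between Nons and the hairpins had 1580 calls (667 higher, 913 lower in Nons). It had 0 of either kind with eBayes without a trend and 0 with 9 libraries of days 4, 5 and 7, and 51 (27 and 24) with 12 libraries of days 4 to 7. With voom weights on recovered reads 1032 were higher, and thinned to the smallest depth 604 were lower. The difference has no value with a pair left out, because no residual degree of freedom or no control then remains. The X-linked minus autosomal median step was -0.012 with no filter on low values and ran from -0.19 to -0.12 with 1 pair left out. Genes moved by at least 2-fold in every pair numbered 723 (387 up, 336 down), 376 (172 and 204) at a mean log2 CPM of at least 2 and 1663 (947 and 716) with no filter. With 1 pair left out they numbered 812 to 1019, with 448 to 514 up and 364 to 505 down.

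Of 2051 checks of the step over 149 chosen genes, 1866 kept direction and call, 175 lost the call, 6 gained it and 4 turned sign. Without Smarcc1.7 57 of the 149 lost the call, and with no replicate block 34. The sign turns were all in Eif2s3x, which was not called: -0.037 centred on the autosomal median, -0.041 with median-of-ratios scaling, -0.00389 when thinned and -0.055 to 0.067 with 1 pair left out. Of 387 checks of the difference over 40 genes, 266 kept the call and 121 lost it. Depth limits genes under about 20 reads.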
